A study of Homo sapiens with 6 samples.

Results

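The 10 genes described here are FOS, FOSB, FOSL1, FOSL2, JUN, JUNB, JUND, EGR1, IER2 and IER3, taken by symbol from the 19202 genes of the deposited count table. They were measured by RNA sequencing in MHCC97H, a human hepatocellular carcinoma cell line of high metastatic potential. There were 3 sorafenib-resistant libraries (labelled SR) and 3 control libraries of the sorafenib-sensitive line, so the comparison sets resistant cells against the sensitive line they are named for. Sorafenib is a multikinase inhibitor used in advanced liver cancer, with RAF kinases and growth factor receptors among its targets. No source used here says how resistance was selected, whether the resistant cells are 1 clone, or whether they were under the drug at harvest. Nor do the labels say that replicates were separate cultures, so a p-value here reflects only how far these libraries scatter, and that scatter could be technical.

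Immediate-early genes are transcribed within minutes of a growth or stress signal, before any new protein is made. FOS-family proteins pair with JUN-family proteins through a leucine zipper and form the transcription factor AP-1, whereas JUN-family proteins can also pair among themselves. EGR1 is a zinc-finger transcription factor induced through the serum response factor SRF and its partner ELK1, which ERK phosphorylates. In liver, FOS, JUN and EGR1 are best known for their early induction in regeneration after injury.

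Library totals were 3745068 to 4961907 counts in resistant and 1913469 to 5345272 counts in control libraries. Every member passed the filter on low counts, with count sums of 528 (IER3) to 5549 (JUN) over the resistant and 471 (IER3) to 4893 (JUN) over the control libraries. Levels are given as CPM, counts scaled to a common library total with a TMM factor. Fold changes are on the log2 scale (log2FC), resistant over control, with their standard error (SE). In such bulk RNA, fewer cells with a transcript and less of it per cell cannot be told apart. As a check of the labelled cell type, the epithelial keratins were abundant, with KRT8 at 1010 to 1209 CPM in resistant and 1105 to 1401 CPM in control libraries. Of the liver markers, AFP stayed under 5 CPM and APOA1 and TTR under 2 CPM in each library, and the epithelial marker EPCAM was at 0.000 to 0.818 CPM in resistant and 0.377 to 5.14 CPM in control libraries. Over all tested genes 12.3% were called lower and 11.7% higher. Of 7 tested markers in the liver and epithelial list, 3 were called lower and 0 higher, with 4 lower and 0 higher at an unadjusted p under 0.05. They were the secreted liver proteins ALB (log2FC -1.62), APOB (-1.47) and SERPINA1 (-1.44), each under 30 CPM in every library, and in DESeq2 and limma-voom 0 were higher too. The SERPINA1 call was lost in edgeR without resistant replicate 2 or 3 or control replicate 2 or 3 (adjusted p = 0.0543 to 0.114). Markers of blood, endothelium and stroma summed to 71.5 to 156.1 CPM over 13 genes in resistant and 99.8 to 115 CPM in control libraries. Within these, VWF had 26.2 CPM and COL1A2 13.9 CPM in resistant replicate 3 and at most 1.41 CPM in the other resistant libraries, while haemoglobin HBB had 22.6 and 18.5 CPM in control replicates 1 and 3 and under 0.5 CPM in the other libraries. PECAM1 had 6.50, 12.9 and 41.7 CPM in resistant and 43.2, 30.9 and 24.9 CPM in control libraries. KDR had 33.0, 35.7 and 42.6 CPM in resistant and 20.1, 36.3 and 21.1 CPM in control libraries. Of these markers 6 were tested and 0 were called in edgeR, with 1 higher and 1 lower at an unadjusted p under 0.05 and 1 called lower in limma-voom. The part of either marker list in the results below was not tested. The same 4 members were called with each library left out in turn.

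FOS, FOSB, JUND and EGR1 fell in resistant cells, each to between 0.68 and 0.75 of its control level, and no member was called higher. FOSL1, FOSL2, JUN, JUNB, IER2 and IER3 were not called. In edgeR's quasi-likelihood test with Benjamini-Hochberg adjustment over 10804 tested genes, 4 of 10 members were called lower and 0 higher. Among all tested genes 24.1% were called, 12.3% lower and 11.7% higher. At an unadjusted p under 0.05 the members' counts were also 4 lower and 0 higher, and DESeq2 and limma-voom gave 4 and 0 too. The median log2FC of the 10 members was -0.13, beside -0.01 over all tested genes. For the 4 called members every resistant library lay below every control library, as it did for 18.9% of tested genes. For 0 of the 10 did every resistant library lie above every control library, against 19.2% of tested genes.

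**Figure D1:**
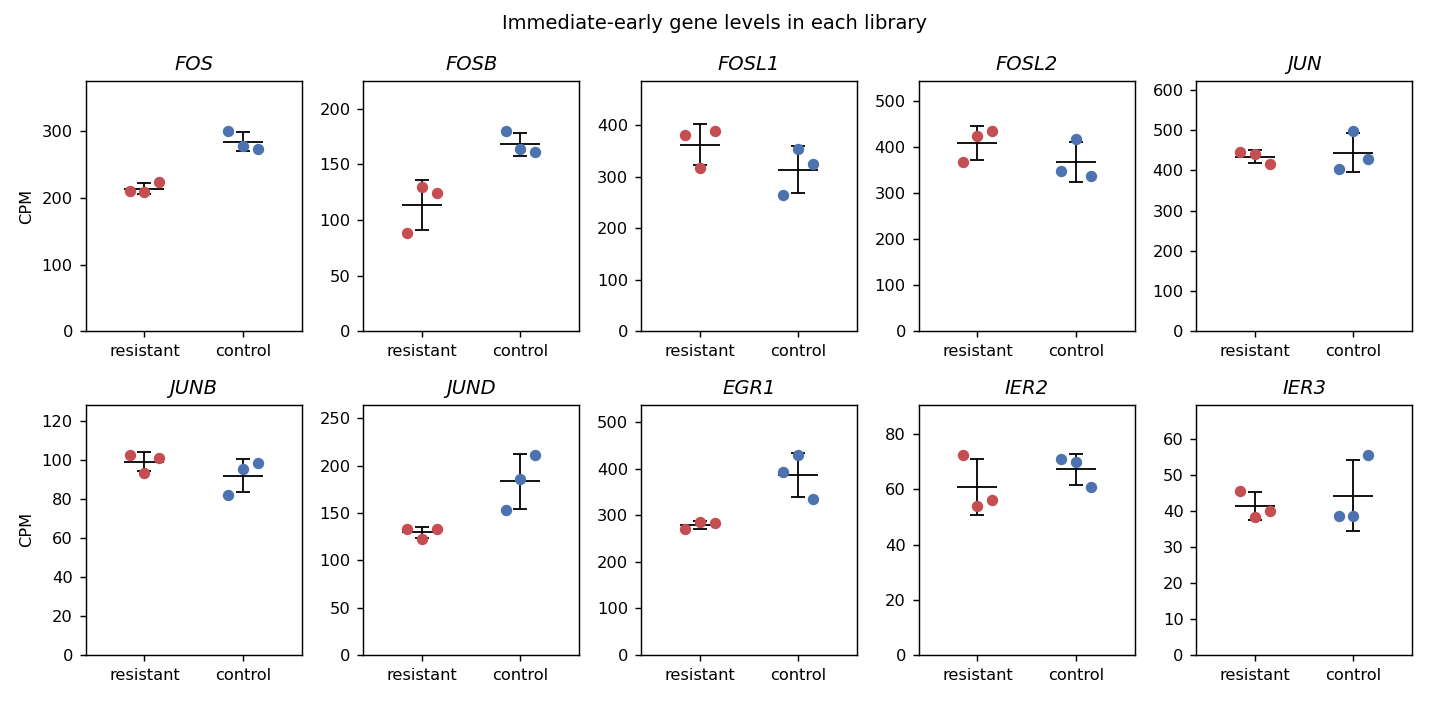
CPM (scaled counts, linear axis from 0) of each of the 10 genes in the 3 resistant and 3 control libraries; points are libraries, the long tick is the mean and the bars are ± SD. For FOS, FOSB, JUND and EGR1 the resistant points lie below all control points, and for the other 6 genes the groups overlap.

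FOS, the founding member of its family and a classic serum-induced gene, had 211, 208 and 223 CPM in resistant replicates 1 to 3, against 300.3, 279 and 274 CPM in control replicates 1 to 3. The resistant libraries lay within a narrow band, and the groups did not overlap. The means were 214 ± 8.14 CPM in resistant and 284 ± 14.2 CPM in control cells (SD, n = 3 each). Its log2FC was -0.40 (SE 0.10), and the adjusted p in edgeR was 0.0016.

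FOSB, a paralogue of FOS that also forms AP-1 with JUN proteins, had 88.0, 129 and 124 CPM in resistant libraries, against 180, 164 and 161 CPM in control libraries. Resistant replicate 1 stood lowest, and even the highest resistant library was under the lowest control library. FOSB had the lowest log2FC of the 10, -0.55 (SE 0.12, adjusted p = 0.000614 in edgeR). Without resistant replicate 1 its log2FC was -0.39 and the call was kept (adjusted p = 0.0123 in edgeR).

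FOSL1 (Fra-1) and FOSL2 (Fra-2) encode FOS-family proteins without the strong activation domain of FOS, and FOSL1 is known as a target of AP-1 itself. FOSL1 had 381, 316 and 388 CPM in resistant and 264, 353 and 324 CPM in control libraries. FOSL2 had 367, 424 and 435 CPM in resistant and 347, 417 and 338 CPM in control libraries. In each gene the groups overlapped. The log2FC was 0.20 for FOSL1 (95% interval -0.01 to 0.40, adjusted p = 0.167 in edgeR) and 0.15 for FOSL2 (95% interval -0.05 to 0.35, adjusted p = 0.28 in edgeR).

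In the JUN family the called gene was JUND, a member that is more constitutively expressed than JUN and JUNB in many cell types. JUND had 133, 122 and 133 CPM in resistant libraries, against 153, 186 and 212 CPM in control libraries. The groups did not overlap, and control replicate 1 came closest to the resistant libraries. Its log2FC was -0.51 (SE 0.11), with an adjusted p of 0.000685 in edgeR.

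JUN, the founding AP-1 subunit and a substrate of the JNK kinases, had 446, 441 and 415 CPM in resistant and 405, 498 and 429 CPM in control libraries. The control libraries held both the lowest and the highest value, and the log2FC was -0.04 (95% interval -0.23 to 0.15, adjusted p = 0.811 in edgeR). JUNB, a weaker activator than JUN, had 103, 93.6 and 101 CPM in resistant and 82.3, 95.7 and 98.6 CPM in control libraries, with a log2FC of 0.10 (95% interval -0.15 to 0.34, adjusted p = 0.629 in edgeR). HOOK2, on the opposite strand, shares 259 annotated exon bases with JUNB. No source used here says whether counting used strand, so JUNB is uncertain to that extent.

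EGR1 had 269.9, 286 and 283 CPM in resistant libraries, against 393, 430.3 and 336 CPM in control libraries. Resistant libraries differed little among themselves, and the lowest control library was still above them. The means were 279.7 ± 8.66 CPM in resistant and 387 ± 47.4 CPM in control cells (SD, n = 3 each). Its log2FC was -0.47 (SE 0.10), and its adjusted p of 0.000332 in edgeR was the smallest of the 10.

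IER2, a nuclear immediate-early protein, had 72.5, 54.1 and 56.1 CPM in resistant and 71.0, 70.1 and 60.7 CPM in control libraries. IER3, an early response gene linked to survival under stress, had 45.7, 38.3 and 40.1 CPM in resistant and 38.6, 38.8 and 55.7 CPM in control libraries. For IER2 resistant replicate 1 was highest of all libraries, and for IER3 control replicate 3 was. The log2FC was -0.15 for IER2 (95% interval -0.44 to 0.15) and -0.11 for IER3 (95% interval -0.46 to 0.24), with adjusted p of 0.525 and 0.712 in edgeR. These intervals still hold decreases as large as that of FOS. Annotated antisense genes share 946 exon bases with IER2 and 359 with IER3, so their counts carry the same uncertainty as those of JUNB. No exon base of FOS, FOSB, JUND or EGR1 is shared with another annotated gene.

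**Figure D2:**
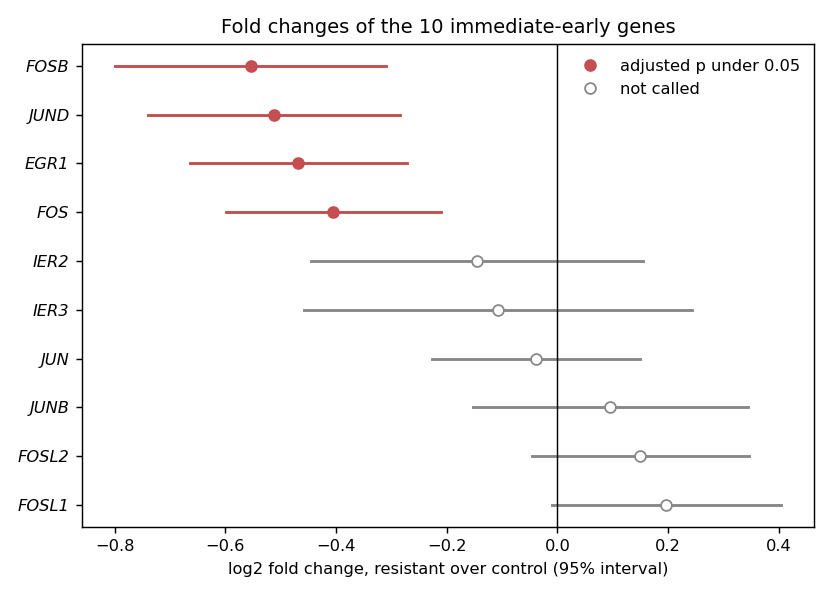
Log2 fold change, resistant over control, of the 10 genes (dots) with 95% intervals from edgeR's quasi-likelihood fit (lines); filled red marks an adjusted p under 0.05. FOSB (-0.55), JUND (-0.51), EGR1 (-0.47) and FOS (-0.40) have intervals below 0, while the other intervals span 0.

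JUNB was not called and holds none of the marked motifs. Its promoter and those of the 4 genes that fell are printed for the 250 bases before the annotated start. All are RefSeq sequences on GRCh38.p14, 5′ to 3′ on the gene's strand. FOS lies at chr14:75278578-75278827 (plus strand), FOSB at chr19:45467746-45467995 (plus), JUND at chr19:18281623-18281872 (minus), EGR1 at chr5:138465229-138465478 (plus) and JUNB at chr19:12791236-12791485 (plus). Capitals mark 3 motifs, searched on both strands: TGACGT, the core of the cAMP response element bound by CREB1, ATF1 and CREM, the CArG box bound by SRF, and TGACATCA, the AP-1-like element of JUN. None of the printed windows holds TGACATCA. Among members not called and not printed, FOSL2 holds TGACGT and JUN holds TGACATCA, while IER2 holds neither.
FOS: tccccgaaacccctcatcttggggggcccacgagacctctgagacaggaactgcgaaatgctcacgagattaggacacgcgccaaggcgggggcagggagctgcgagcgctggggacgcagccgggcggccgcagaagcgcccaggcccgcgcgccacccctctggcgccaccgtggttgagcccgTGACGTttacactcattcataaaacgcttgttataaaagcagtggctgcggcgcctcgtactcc
FOSB: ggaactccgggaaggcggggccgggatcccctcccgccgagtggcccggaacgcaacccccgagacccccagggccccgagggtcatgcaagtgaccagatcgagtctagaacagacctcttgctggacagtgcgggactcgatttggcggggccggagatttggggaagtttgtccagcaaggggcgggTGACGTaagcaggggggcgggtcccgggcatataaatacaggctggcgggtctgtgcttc
JUND: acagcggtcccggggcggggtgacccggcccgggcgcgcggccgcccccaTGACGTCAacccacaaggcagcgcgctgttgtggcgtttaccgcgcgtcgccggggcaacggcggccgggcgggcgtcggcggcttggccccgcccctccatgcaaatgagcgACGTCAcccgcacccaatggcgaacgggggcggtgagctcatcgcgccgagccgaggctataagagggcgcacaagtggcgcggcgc
EGR1: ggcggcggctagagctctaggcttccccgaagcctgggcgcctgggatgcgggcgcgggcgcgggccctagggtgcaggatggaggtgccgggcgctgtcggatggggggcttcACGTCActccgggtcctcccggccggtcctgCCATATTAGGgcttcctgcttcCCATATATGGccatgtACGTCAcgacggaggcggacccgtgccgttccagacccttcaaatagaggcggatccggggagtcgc
JUNB: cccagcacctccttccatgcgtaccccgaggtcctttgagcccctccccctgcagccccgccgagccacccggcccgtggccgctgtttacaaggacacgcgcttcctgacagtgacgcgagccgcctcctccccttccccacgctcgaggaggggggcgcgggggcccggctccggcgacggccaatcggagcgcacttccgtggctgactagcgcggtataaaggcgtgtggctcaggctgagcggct
Windows were held for 8 of the 10 members, without FOSL1 and IER3. TGACGT was found in 5 of the 8 windows, against 9.44% of 12767 windows of tested genes and 7.10% of all 35116 windows. It began at -64 in FOS, -60 in FOSB and -66 in FOSL2, counted from the start. EGR1 held it at -136 and -67, and JUND at -87 and, on both strands, at -200 to -193, where it forms the full palindrome TGACGTCA. That palindrome was in 2.54% of windows of tested genes and in JUND alone among the 8. FOSL2, which was not called, held TGACGT without the palindrome, and the JUN, JUNB and IER2 windows held neither. The CArG box was found in EGR1 only among the 8, at -105 and -83, against 0.987% of windows of tested genes. A CArG box farther upstream, in FOS or any other member, would not be seen in these windows. TGACATCA was found in JUN alone, at -67 to -60, against 1.36% of windows of tested genes. TGACTCA, the consensus AP-1 site (both strands), was in 0 of the 8 windows and in 3.02% of windows of tested genes. The GENCODE span of FOS, FOSL2 and JUN starts upstream of the RefSeq start used here, so their windows fall partly or wholly inside it. A match is a description of these letters, and elements outside the windows were not searched.

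Because scaling cancels in a ratio of counts within a library, pairs of family members were also compared that way; the pairs were chosen after the values were seen. The ratio of FOS to FOSL1 counts was 0.553, 0.658 and 0.576 in resistant libraries, against 1.14, 0.788 and 0.846 in control libraries. The highest resistant ratio was below the lowest control ratio. The ratio of FOSB to FOSL2 was 0.239 to 0.305 in resistant and 0.394 to 0.519 in control libraries. JUND to JUNB was 1.29 to 1.31 in resistant and 1.86 to 2.15 in control libraries. JUND to JUN was 0.278 to 0.320 in resistant and 0.372 to 0.494 in control libraries. EGR1 to JUN was 0.606 to 0.681 in resistant and 0.784 to 0.972 in control libraries, and EGR1 to IER2 was 3.72 to 5.30 in resistant and 5.54 to 6.14 in control libraries. Each of these 6 ratios was lower in every resistant than in every control library. Each sets a member that was called lower over one that was not, so the separation restates those calls and is given without a test.

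To compare levels between genes, CPM were divided by the length of the annotated exons in kilobases (CPM per kb). That length exceeded the representative coding transcript for FOS (2938 against 2158 bases) and FOSB (5553 against 3775), but not for EGR1 (3138). Places in the order, and the family shares below, therefore depend on the length used, and transcript length was not tried. In resistant cells the order was FOSL1 (197 ± 21.4 CPM per kb), JUN (123 ± 4.61), EGR1 (89.1 ± 2.76), FOS (72.9 ± 2.77), JUND (69.5 ± 3.25), FOSL2 (60.1 ± 5.32), JUNB (54.5 ± 2.73), IER3 (30.5 ± 2.86), FOSB (20.5 ± 4.06) and IER2 (19.8 ± 3.30). In control cells FOSL1 (170.4 ± 24.8 CPM per kb) again stood above JUN (125 ± 13.7), EGR1 (123 ± 15.1), JUND (98.5 ± 15.7) and FOS (96.7 ± 4.82), and the remaining places were the same (SD, n = 3 in each group). Among neighbours in this order, the library ranges of FOS and JUND, FOSL2 and JUNB, and FOSB and IER2 overlapped in resistant cells. In control cells those of JUN and EGR1, EGR1 and JUND, JUND and FOS, FOSL2 and JUNB, and IER3 and FOSB overlapped. EGR1 thus stood clear of JUN in resistant libraries and not in control libraries.

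Per length, FOS made up 20.6, 21.6 and 20.4% of the FOS family in resistant libraries, against 31.1, 25.1 and 26.8% in control libraries. FOSL1 made up 59.4, 52.3 and 56.5% in resistant and 43.6, 50.8 and 50.6% in control libraries, and FOSB 4.54 to 7.09% in resistant and 7.82 to 9.85% in control libraries. FOSL1 held the largest share in every library. Of the JUN family, JUND made up 27.2 to 29.2% in resistant and 34.0 to 39.3% in control libraries, and JUNB 21.3 to 22.8% in resistant and 17.9 to 18.8% in control libraries. The shares of FOSL1 and JUNB were higher in every resistant than in every control library, although neither gene was itself called. Shares within a family sum to a whole, so each one depends on the other members. They are given as a description, without a test.

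**Figure D3:**
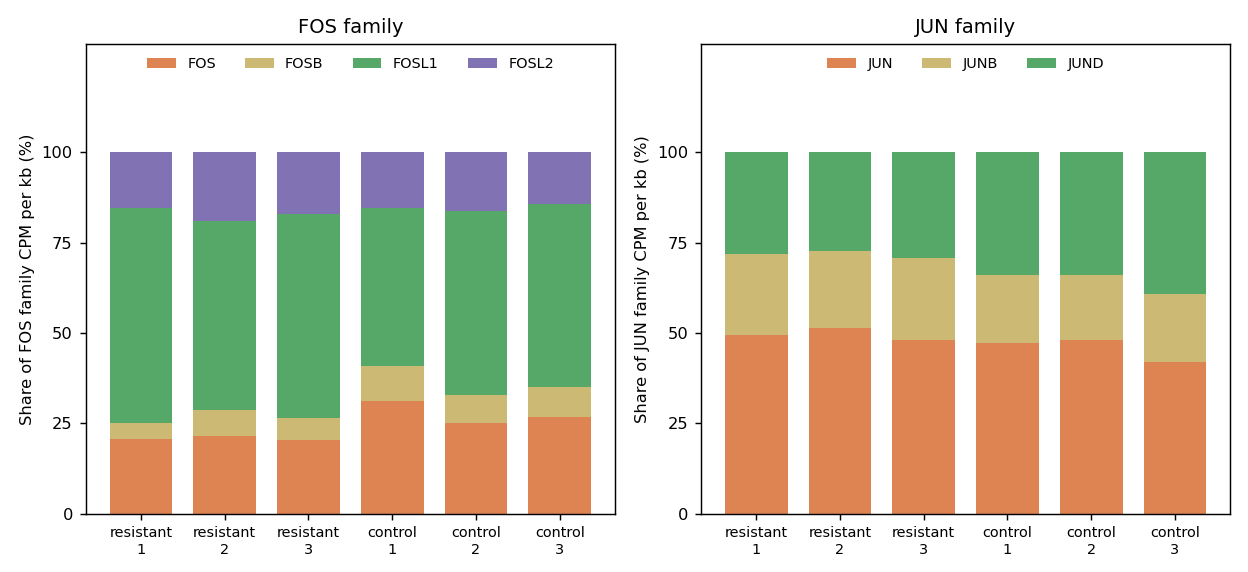
Share (%) of each FOS-family gene (left) and JUN-family gene (right) in the family's summed CPM per kb of exon, one bar per library with the resistant libraries first. FOS takes 20.4 to 21.6% in resistant and 25.1 to 31.1% in control libraries, and JUND takes 27.2 to 29.2% in resistant and 34.0 to 39.3% in control libraries.

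Among the 4 called members only FOS and FOSB have the same number of exons, and the 4 genes lie on different chromosomes or far apart. JUND is a single-exon gene of chromosome 19 (18279760 to 18281622), as JUN (chromosome 1, 58780788 to 58784327), JUNB (chromosome 19, 12791496 to 12793315) and IER2 (chromosome 19, 13150415 to 13154908) are in their representative transcripts. FOSB lies on chromosome 19 from 45467995 to 45475179 and FOS on chromosome 14 from 75278774 to 75282230, with 4 exons each, and EGR1 on chromosome 5 from 138465490 to 138469315, with 2 exons. FOSL1 (chromosome 11, 65892049 to 65900573), FOSL2 (chromosome 2, 28392448 to 28417312) and IER3 (chromosome 6, 30743199 to 30744554) complete the set. Spans follow GENCODE 29 (GRCh38), which need not be the build the submitters counted on. The transcript GC content was 52.6% for FOS, 55.4% for EGR1, 57.7% for FOSB and 69.7% for JUND, and 53.3 to 64.9% for the 6 genes not called.

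Many immediate-early mRNAs are short-lived, and ATTTA in the 3′ untranslated region is the core of the AU-rich elements that ZFP36 proteins bind to speed decay. ATTTA occurred 5 times in FOS, 3 times in FOSB, and once each in JUND and EGR1, on the mRNA strand. It occurred 9 times in FOSL2, 6 in IER3, 3 in JUN, 2 in JUNB, 1 in FOSL1 and 0 in IER2. Among 10263 tested genes with such a region of at least 100 bases, 74.1% held at least one and the median was 2. By count, the genes that fell thus lay on both sides of that median. Per kb of the region, FOS had 6.20, FOSB 1.385, JUND 1.47 and EGR1 0.81, beside a median of 1.78 among those tested genes. Per kb, FOSB was thus below the median and FOS above it. The members not called ranged from 0 (IER2) to 8.14 (IER3) per kb. Of the decay factors themselves, ZFP36L1 had 148, 155 and 152 CPM in resistant and 244, 247 and 286 CPM in control libraries (log2FC -0.78, adjusted p = 1.69e-07 in edgeR). ZFP36 fell as well (log2FC -0.36, adjusted p = 0.00399 in edgeR), and ZFP36L2 was not called (0.33, adjusted p = 0.0832 in edgeR); ZFP36 and ZFP36L2 were named after their values were seen.

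Other bZIP proteins, which can pair with FOS or JUN proteins, moved in both directions. Of 14 such genes, 10 were tested, 3 were called lower and 1 higher, and their median log2FC was -0.08. Over all tested genes, 12.3% were called lower and 11.7% higher. ATF3, itself a stress-induced immediate-early gene, had 169, 151 and 184 CPM in resistant libraries, against 441, 370 and 424 CPM in control libraries (log2FC -1.29, SE 0.10, adjusted p = 8.21e-13 in edgeR). Its levels in resistant libraries were under the lowest control level by more than the spread within either group. The small MAF proteins MAFF (log2FC -0.61, SE 0.15) and MAFG (-0.32, SE 0.09) were lower. ATF4, the effector of the integrated stress response, was higher, with 663, 589 and 586 CPM in resistant and 413, 441 and 403 CPM in control libraries. ATF2, ATF7 and JDP2, which pair with JUN, were not called, and BATF, MAF and MAFA were among those that did not pass the filter.

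Among 39 further immediate-early genes 35 were tested, 8 were called higher and 6 lower, and the median log2FC was 0.00. The share called in either direction was 24.1% over all tested genes. The zinc-finger factor KLF10, induced by TGF-beta, had 607, 574 and 529 CPM in resistant libraries, against 218, 312 and 292 CPM in control libraries (log2FC 1.04, SE 0.10, adjusted p = 3.56e-10 in edgeR). KLF6, a related factor, was higher at a log2FC of 0.46 (SE 0.09), and so was TIPARP, an ADP-ribosyltransferase induced through the aryl hydrocarbon receptor, at 0.72 (SE 0.12). MCL1, an anti-apoptotic BCL2 relative, had 431, 487 and 489 CPM in resistant and 737, 801 and 769 CPM in control libraries (log2FC -0.71, SE 0.09). The antiproliferative gene BTG1 was lower at -0.65 (SE 0.10). For each of these 5 genes, and for ZFP36L1, the groups did not overlap and the adjusted p in edgeR was at most 0.000236. IER5, a relative of IER2, was called higher (log2FC 0.74, SE 0.17), and MYC, whose resistant libraries all lay above the control ones, was not called (log2FC 0.21, adjusted p = 0.0804 in edgeR). The EGR1 relative EGR2 had under 13 CPM in every library and was not called, while EGR3 and EGR4 were not tested. IER5, MYC and the EGR relatives were named after their values were seen.

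**Figure D4:**
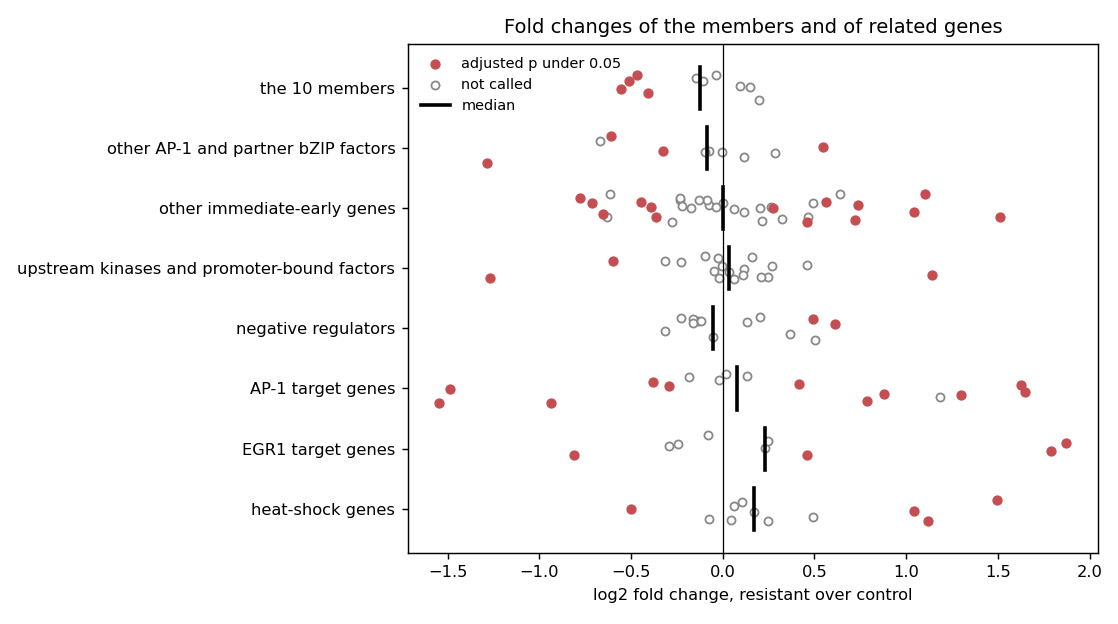
Log2 fold change, resistant over control, of the tested genes in each list (points, spread vertically for legibility); filled red marks an adjusted p under 0.05 in edgeR and the black bar is the list's median. The 10 members have 4 red points, all below 0, whereas the 35 other immediate-early genes have 8 red points above 0 and 6 below.

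Kinases and promoter-bound factors that act on these genes counted 1 higher and 2 lower of 19 tested, beside 24.1% of all tested genes called in either direction, with a median log2FC of 0.03. The gene called higher was CREM, a factor of the cAMP response element whose gene also encodes a repressor, ICER. CREM had 49.5, 52.7 and 41.5 CPM in resistant libraries, against 20.6, 18.8 and 25.8 CPM in control libraries, with no overlap (log2FC 1.14, SE 0.19, adjusted p = 1.46e-05 in edgeR). The counts do not separate its transcripts, so the level of ICER is not known here. The p38 kinase MAPK14 was lower, with 38.7, 36.7 and 38.9 CPM in resistant and 59.6, 52.4 and 61.9 CPM in control libraries (log2FC -0.60, SE 0.16). RPS6KA5 (MSK1), a kinase of CREB1 and histone H3, was called lower (log2FC -1.27, SE 0.45, adjusted p = 0.0352 in edgeR). It had under 16 CPM in every library, and its call was lost without control replicate 3 (log2FC -0.81, adjusted p = 0.346 in edgeR) and without any of the resistant replicates (adjusted p = 0.0502 to 0.131). SRF (log2FC 0.03), ELK1 (0.11) and CREB1 (0.11) were not called. These 3 were named after their values were seen.

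Negative regulators of the ERK, JNK and EGR1 pathways were set beside all tested genes, of which 24.1% were called. They counted 2 higher and 0 lower of 13 tested in edgeR, with a median log2FC of -0.05. At an unadjusted p under 0.05 there were 4 higher and 1 lower, and DESeq2 and limma-voom also called 0 lower. DUSP10, a phosphatase of JNK and p38, had 57.9, 54.1 and 51.1 CPM in resistant and 32.4, 42.4 and 30.2 CPM in control libraries (log2FC 0.61, SE 0.17, adjusted p = 0.00592 in edgeR). SPRY2, a feedback inhibitor of receptor signalling, was higher (log2FC 0.49, adjusted p = 0.0368 in edgeR). That call was lost in DESeq2 (adjusted p = 0.063), in limma-voom (0.0729) and in edgeR without resistant replicate 1 (0.132), resistant replicate 2 (0.153), control replicate 1 (0.15) or control replicate 3 (0.0583). DUSP6, an ERK phosphatase often read as a measure of ERK output and named after its value was seen, had 293, 293 and 311 CPM in resistant and 282, 291 and 358 CPM in control libraries (log2FC -0.05, 95% interval -0.25 to 0.15). The related phosphatases DUSP1, DUSP2 and DUSP5 were counted among the further immediate-early genes instead. There DUSP5 was called lower (log2FC -0.44, adjusted p = 0.000317 in edgeR) and DUSP2 higher (1.10, adjusted p = 0.00278 in edgeR). DUSP1 was not called (-0.23, adjusted p = 0.0635 in edgeR), although every resistant library lay below every control library. These phosphatases were also named after their values were seen.

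Known target genes of AP-1 were called in both directions, 6 higher and 5 lower of 16 tested, with a median log2FC of 0.08. Of all tested genes, 11.7% were called higher and 12.3% lower. The urokinase receptor PLAUR had 51.2, 44.0 and 46.2 CPM in resistant and 16.5, 19.0 and 21.1 CPM in control libraries (log2FC 1.30, SE 0.19), and cyclin D1, CCND1, had a log2FC of 0.88 (SE 0.11). The secreted phosphoprotein SPP1 had 440, 422 and 417 CPM in resistant libraries, against 788, 820 and 836 CPM in control libraries (log2FC -0.94, SE 0.09). The chemokine CXCL8 (log2FC -1.49, SE 0.28) and the adhesion receptor CD44 (-0.38, SE 0.10) were also lower. Adjusted p in edgeR was at most 0.0033 for these 5 genes. The matrix genes MMP3, MMP9, MMP10 and MMP13 were too low to test.

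Of 9 genes known as EGR1 targets, 3 were called higher and 1 lower, and the median log2FC was 0.23. The share called over all tested genes was 24.1%. ICAM1, an adhesion molecule, had 55.5, 79.2 and 75.1 CPM in resistant libraries, against 126, 120 and 125 CPM in control libraries (log2FC -0.81, SE 0.13). IGF2, a growth factor, was higher at a log2FC of 1.87 (SE 0.41) and PDGFB at 1.79 (SE 0.58), from 40 and 18 counts over the control libraries. The PDGFB call was lost in edgeR with any 1 of the 6 libraries left out (adjusted p = 0.0504 to 0.0763). THBS1, a matrix glycoprotein, was called higher with overlapping groups (log2FC 0.46, SE 0.13). DESeq2 did not call it (adjusted p = 0.189), nor did edgeR without resistant replicate 3 (adjusted p = 0.116) or control replicate 2 (0.0891).

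Heat-shock genes, which answer protein stress, were 3 higher and 1 lower of 11, with a median log2FC of 0.17. For comparison, 24.1% of all tested genes were called in either direction. HSPA8, the constitutive HSC70 chaperone, had 1000.4, 971 and 865 CPM in resistant libraries, against 321, 357 and 325 CPM in control libraries (log2FC 1.50, SE 0.09). Its cochaperone DNAJA1 (log2FC 1.04, SE 0.11) and the inducible HSPA1A (1.12, SE 0.31) were higher, and the small heat-shock protein HSPB1 was lower (-0.50, SE 0.10). HSPA1A stayed under 18 CPM in every library and shares sequence with HSPA1B, so reads may be split between them. The other 7 were not called. The 11 genes summed to 2833 to 3113 CPM in resistant and 2127 to 2323 CPM in control libraries. Without HSPA8 the sums of the other 10 overlapped, at 1950.3 to 2113 CPM in resistant and 1769.9 to 1998 CPM in control libraries. The part of this list in the falls of FOS, FOSB, JUND and EGR1 was not tested.

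The genes whose pattern over the 6 libraries was nearest to the member of each class with the highest mean CPM, not divided by length, were sought among 7020 other tested genes with a mean of at least 20 CPM. Nearness was the root mean square difference of log2 CPM profiles, each centred on its own mean. It used the same 6 libraries, so a log2FC near that of the member follows from the selection. For EGR1 they included NCOA3 (0.06) and SSH1 (0.06), with log2FC of -0.46 and -0.50 beside -0.47 for EGR1. For FOSL2 they were DPP8 (0.03), EPB41L2 (0.04) and MBTPS2 (0.04). For JUN they were UACA (0.04), AP3S1 (0.04) and TLE1 (0.05), and for FOSL2 and JUN the neighbours were not called, with log2FC of -0.05 to 0.19.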

How the data were processed

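Per the labels' protocols, RNA was isolated with Trizol and a column kit, and libraries followed the EasyRNA-seq protocol. Trimmomatic, HISAT2 and Bowtie2 are named without versions or roles in the submitters' processing notes. The counter, build, annotation and strand setting were not found in the sources used. The authors deposited counts, whole numbers for each gene without normalization, judging by the values and the file headers. The series table and the single-library tables held equal values. Even numbers made up 81.8 to 88.5% of counts of 1 to 20, so halved counts were tried as an alternative. Within groups, halved counts of any pair of replicates gave 1.78 to 2.86 for chi-square over its degrees of freedom, and each library was kept as a replicate.

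After filterByExpr, 10804 genes were scaled by TMM. edgeR 4.0.16 (R 4.3.3) gave quasi-likelihood F tests with group as the sole term and Benjamini-Hochberg adjustment, and a gene was called at an adjusted p under 0.05. The SE is the log2FC over the square root of F, and intervals are 95%. A simulation built from the fitted means, depths and dispersions was run after the main fit, and its outcome is not reported here. DESeq2 1.42.0, limma-voom (limma 3.58.1) and further alternatives are described in the closing section. Exon length is the union over GENCODE 29 basic transcripts, and GC content and ATTTA were read from 1 coding transcript per gene. Promoters are RefSeq windows on GRCh38.p14.

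Members and gene lists were chosen with earlier results of these data known. The genes named were the 10 members, up to 3 called genes per direction with the smallest p in each list, and the nearest profiles. Others are marked as named after their values were seen, apart from markers and genes named as untested or not called. For MRTFA, MRTFB and COP1 no row was matched. A few genes that the rule names are not reported here.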

Additional observations from a re-analysis of the deposited data

How the results depend on the processing

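The 4 calls among the members (FOS, FOSB, JUND and EGR1 lower) and the 0 calls higher stood in each of 15 alternatives. These were scaling by RLE, by upper quartiles or by library totals, DESeq2, limma-voom, no filter on low counts, at least 1 CPM in 3 libraries, a replicate block, halved counts, and leaving out each of the 6 libraries. Over them the log2FC ranged from -0.43 to -0.36 for FOS, -0.65 to -0.39 for FOSB, -0.61 to -0.39 for JUND and -0.55 to -0.38 for EGR1, and the highest adjusted p was 0.0287, for JUND. Of all genes 2601 were called, with 2394 to 2701 in the other settings on all libraries and 2001 to 2261 with a library left out. JUN ranged from -0.089 to 0.054 with a library left out, changing sign without resistant replicate 3 (log2FC 0.0038) or control replicate 2 (0.054). IER3 ranged from -0.22 to 0.11, changing sign without control replicate 3 (0.11). Neither was called in any setting. With the replicate block 2518 genes were called and no member's call changed. Deviations of same-numbered libraries correlated at -0.015, 0.033 and -0.00648, so the numbers were not taken to pair them. Among the other genes named, PDGFB (6 settings), SPRY2 (6), RPS6KA5 (4), SERPINA1 (4) and THBS1 (3) lost their call in some settings, and the cause was not tested. Among the members, IER3 and IER2 had the fewest counts and the largest SE (0.17 and 0.15).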
